A study of Mus musculus with 24 samples.

Results

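The subject here is how far the cortical response to conduritol B-epoxide (CBE) differed between C57 and C3H mice. For each gene the change in C3H (CBE minus phosphate-buffered saline, PBS) was subtracted from the change in C57, so a positive difference means a larger rise, or a smaller fall, in C57. The contrast used 12 of the study's 24 arrays and was computed for 22180 genes; all 24 arrays, with FVB and SV129 mice, entered the fit, so that the 8 groups shared 1 estimate of the spread. Strain differences are given with all arrays and again without the array C3H CBE 1, which stood apart from its replicates; per-array comparisons show it beside them. Changes and strain differences are log2 values ± standard error from limma. P-values were adjusted by Benjamini-Hochberg across all 22180 genes, with 0.05 as the threshold.

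There were 4 groups of 3 male mice, 1 array per mouse: C57 given CBE, C57 given PBS, C3H given CBE and C3H given PBS. The C57 mice were C57BL/6JOlaHsd, and the C3H substrain is not given in the sources used here. CBE was injected into the peritoneum at 25 mg per kg per day between postnatal days 8 and 18, PBS mice served as healthy controls over the same days, and cortex was taken at 18 days of age. No transgene or induced mutation is named for any group. The labels do not say whether the mice of a group shared a litter or a handling day, so the p-values measure the spread between these mice only.

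CBE is used to produce a chemical model of Gaucher disease, a lysosomal storage disorder in which undegraded lipids build up inside cells. In the neuronopathic form, neurons carry the storage and are lost, while microglia and astrocytes become activated. Type I interferons are secreted antiviral proteins whose receptor signals through a transcription factor complex that binds the interferon-stimulated response element (ISRE) in target promoters and switches on many effector genes.

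The arrays lay on a common scale, with medians between 4.14 and 4.22, and Pearson correlations within the 4 groups ran from 0.990 to 0.993. Over the genes that differed between the strains in PBS mice, 6 of 6 CBE arrays lay nearer to their own strain's PBS mean. The neuronal genes Camk2a (11.61 to 11.91 over the 12 arrays) and Rbfox3 (9.77 to 10.22) lay far above the median of all probe sets, 4.18. The median standard error of a strain difference was 0.14, and the median half-width of its 95% confidence interval was 0.29. That interval is unadjusted, and passing the threshold after adjustment over all genes took larger differences. Skint8, for example, at 0.72 ± 0.13 did not pass by limma (adjusted p = 0.154). Differences that did not pass are therefore not shown to be absent.

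With all arrays, 1 gene of 22180 (0.00451%) passed the threshold, and it was larger in C57: the antiviral gene Rsad2. Without C3H CBE 1 there were 6 (0.0271%), again all larger in C57: Cxcl10, Rsad2, Ddx58, Bst2, Ccl3 and Ifi30. No gene passed in the other direction by limma in either fit. At an unadjusted p under the same threshold there were 831 genes with all arrays (3.75%), 385 positive and 446 negative. Without C3H CBE 1 there were 970 (4.37%), 518 positive and 452 negative. Both shares lay below the threshold itself, which is the share that would pass by chance if no gene differed. The median difference over all genes was -0.01 in both fits. These calls rest on the spread shared with the FVB and SV129 arrays: with only the C57 and C3H arrays in the fit, 0 genes passed, both with C3H CBE 1 and without it. For the change within 1 strain, an exact permutation test of 3 arrays against 3 cannot give a p below 0.1. That floor is not the floor for the strain difference.

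Rsad2 (probe set 17280327) encodes viperin, an interferon-induced enzyme of the endoplasmic reticulum that blocks the replication of many viruses. Its log2 signal was 5.77, 5.97 and 6.15 on the C57 CBE arrays and 4.55, 4.51 and 4.74 on the C57 PBS arrays. In C3H it was 4.92, 4.83 and 4.96 on the CBE arrays and 4.53, 4.41 and 4.54 on the PBS arrays. CBE arrays lay above PBS arrays without overlap in both strains, and the lowest C57 CBE array lay above the highest C3H CBE array. The change was 1.36 ± 0.10 in C57, a 2.57-fold rise (adjusted p = 9.61e-08), and 0.41 ± 0.10 in C3H, or 1.33-fold (adjusted p = 0.319). The strain difference was 0.96 ± 0.14, with a 95% confidence interval of 0.67 to 1.24 (adjusted p = 0.0178), and it was 0.96 ± 0.15 without C3H CBE 1 (adjusted p = 0.0284). C3H CBE 1 lay between its replicates for this gene.

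The Rsad2 call nevertheless depended on single arrays. It was lost on leaving out C57 CBE 2 or 3, C57 PBS 1 or 2, C3H CBE 2, or C3H PBS 1 or 3, while the difference itself stayed between 0.86 and 1.05 and the adjusted p between 0.00473 and 0.111 over the 12 single omissions. With only the C57 and C3H arrays in the fit its adjusted p was 0.212. Cmpk2 (probe set 17274620), the neighbouring gene, encodes a mitochondrial nucleotide kinase and was looked up after the values of Rsad2 were seen. It changed by 0.42 ± 0.09 in C57 (adjusted p = 0.0432) and 0.19 ± 0.09 in C3H (adjusted p = 0.984), a strain difference of 0.23 ± 0.13 that did not pass (adjusted p = 1).

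Cxcl10 (probe set 17449718) encodes a chemokine that draws activated T cells and is a classical interferon target. It had log2 signals of 5.95, 6.39 and 7.15 on the C57 CBE arrays, against 3.83, 3.73 and 4.05 on the C57 PBS arrays. The C3H CBE arrays had 5.08, 4.31 and 4.15, against 3.62, 3.77 and 3.71 on the C3H PBS arrays. Both strains showed higher values on every CBE array, and every C57 CBE array lay above every C3H CBE array, C3H CBE 1 included. The change was 2.62 ± 0.22 in C57, a 6.16-fold rise, and 0.82 ± 0.22 in C3H, or 1.76-fold (adjusted p = 0.497). The strain difference, 1.81 ± 0.31, missed the threshold with all arrays (adjusted p = 0.117) and passed without C3H CBE 1, at 2.09 ± 0.28 (adjusted p = 0.00849). Its 6 PBS arrays all read below the median of all probe sets.

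Ddx58 (probe set 17423987) encodes RIG-I, the cytoplasmic sensor of viral RNA. Its values were 5.61, 5.96 and 6.24 on the C57 CBE arrays and 4.63, 4.68 and 4.59 on the C57 PBS arrays. On the C3H CBE arrays they were 5.75, 4.70 and 4.88, and on the C3H PBS arrays 4.38, 4.56 and 4.63. Here C3H CBE 1 lay among the C57 CBE arrays while C3H CBE 2 and 3 lay just above the PBS range. The strain difference was 0.72 ± 0.25 with all arrays (adjusted p = 1) and 1.04 ± 0.17 without C3H CBE 1 (adjusted p = 0.0284).

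Bst2 (probe set 17510345) encodes tetherin, which holds budding viruses at the cell surface. It read 7.63, 8.58 and 7.88 on the C57 CBE arrays and 5.41, 5.56 and 6.05 on the C57 PBS arrays. The C3H CBE arrays read 6.15, 4.63 and 4.26, and the C3H PBS arrays 4.0, 3.92 and 3.82. Every C57 PBS array lay above C3H CBE 2 and 3, and the PBS difference between the strains, 1.76 ± 0.32, passed the threshold (adjusted p = 0.00118), which it did for no other of the 6 genes. The CBE response differed by 1.26 ± 0.45 with all arrays (adjusted p = 1) and 1.83 ± 0.30 without C3H CBE 1 (adjusted p = 0.0284). The C3H PBS arrays all read below the median of all probe sets. The PBS arrays enter both of these comparisons.

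Ccl3 (probe set 17266967) encodes a chemokine released by microglia and macrophages. The C57 CBE arrays read 5.90, 6.54 and 6.67 and the C57 PBS arrays 4.08, 3.88 and 4.30. In C3H, CBE 1 read 7.60, the highest of the 12 arrays, CBE 2 and 3 read 4.67 and 4.69, and the PBS arrays 3.81, 3.88 and 3.94. Its strain difference rested on that array: it was 0.51 ± 0.64 with all arrays (adjusted p = 1), 1.48 ± 0.25 without C3H CBE 1 (adjusted p = 0.0284), and 0.02 without C3H CBE 2. The PBS means of Ccl3 lay below the median of all probe sets in both strains.

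Ifi30 (probe set 17510136) encodes a lysosomal thiol reductase that unfolds antigens for presentation. It read 6.09, 6.60 and 6.37 on the C57 CBE arrays and 4.89, 4.83 and 4.67 on the C57 PBS arrays, with 5.88, 5.04 and 4.91 on the C3H CBE arrays and 4.72, 4.71 and 4.60 on the C3H PBS arrays. No CBE array overlapped the PBS arrays of its strain, and all C57 CBE arrays lay above the C3H CBE arrays. The strain difference was 0.96 ± 0.27 with all arrays (adjusted p = 1) and 1.26 ± 0.21 without C3H CBE 1 (adjusted p = 0.0325). With only the C57 and C3H arrays, and without C3H CBE 1, the 6 genes kept these differences but their adjusted p lay between 0.0938 for Ifi30 and 0.349 for Ddx58 and Bst2.

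**Figure D1:**
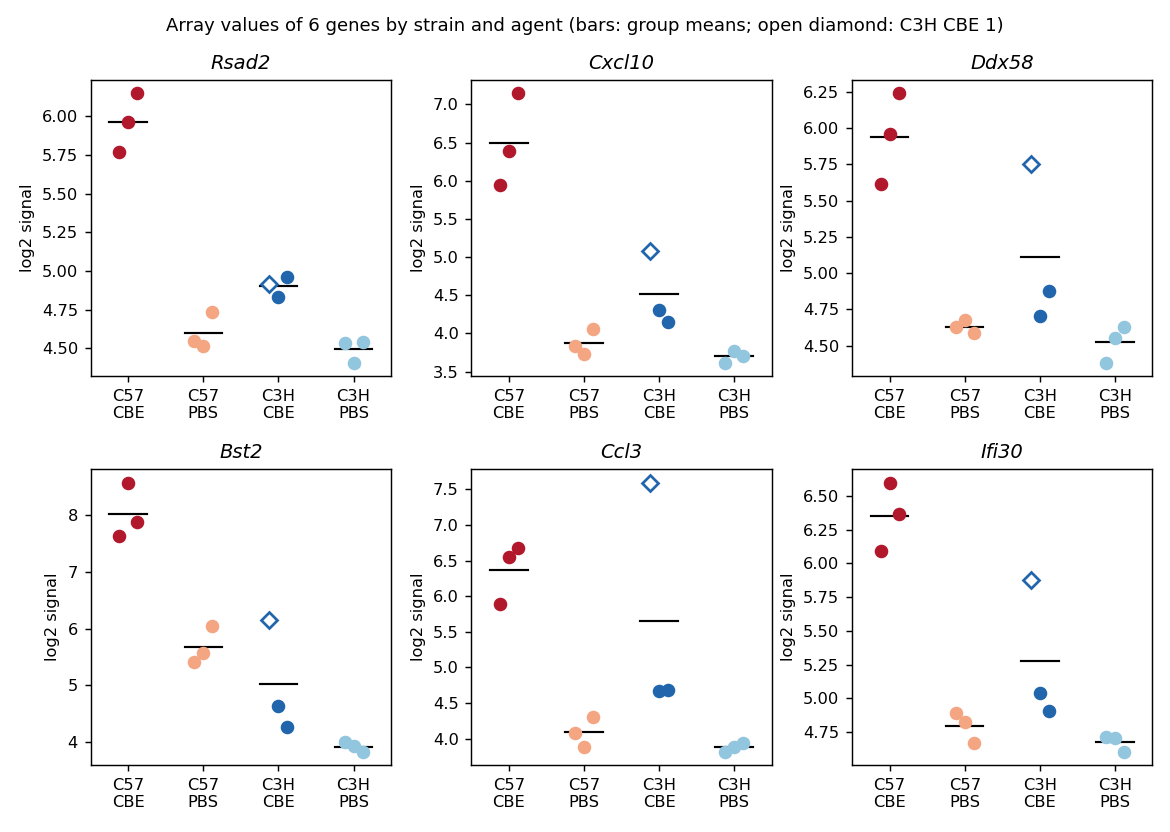
Log2 signal (y axes, each panel with its own range that does not start at 0) of Rsad2, Cxcl10, Ddx58, Bst2, Ccl3 and Ifi30 on every array of the 4 groups (x axes); points are arrays, bars are group means and the open diamond is C3H CBE 1. C57 CBE arrays lie above C57 PBS arrays in every panel, and C3H CBE 1 lies above its replicates in every panel but that of Rsad2.

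Because the 6 genes were called together in the fit without C3H CBE 1, their promoters were searched for interferon motifs. Sequences are those of RefSeq on the build GRCm38.p6, a reference of C57BL/6J, and run from 250 bases before the annotated start of a gene to 50 after it. C3H alleles were not read. Searched on both strands, the ISRE core, GAAA followed by GAAA with any 2 bases between, occurred in 4 of the 6 promoters and in 3.44% of all 32851 promoters in the table. The motif searched for nuclear factor kappa B, GGGA then any base then TTTCC, occurred in 0 of 6 and in 0.411% of all, while a wider form of the kappa B motif, which allows either purine or either pyrimidine at several positions and was added after the sequences were seen, occurred in 3 of 6 (Cxcl10, Bst2 and Ifi30) and in 8.46% of all. The gamma-activated site TTCNNNGAA occurred in 1 of 6, that of Bst2, and in 8.3% of all. The 4 promoters that hold an ISRE core are shown with the matching letters in capitals, to let the positions be compared; all 4 genes lie on the minus strand and are printed in the gene's own direction. For Rsad2 (chr12:26456403-26456702) and Ddx58 (chr4:40239776-40240075) the capitals show the opposite-strand form of the core, and in Bst2 (chr8:71537423-71537722) they join a pair of overlapping matches. The match begins 120 bases before the start in Rsad2, 213 in Cxcl10 (chr5:92348840-92349139) and 130 and 124 in Bst2, and just past the start in Ddx58. A match is a description of letters and not a site shown to be bound. The share among genes raised by CBE without a called strain difference was not counted, so the matches do not bear on that difference.
Rsad2: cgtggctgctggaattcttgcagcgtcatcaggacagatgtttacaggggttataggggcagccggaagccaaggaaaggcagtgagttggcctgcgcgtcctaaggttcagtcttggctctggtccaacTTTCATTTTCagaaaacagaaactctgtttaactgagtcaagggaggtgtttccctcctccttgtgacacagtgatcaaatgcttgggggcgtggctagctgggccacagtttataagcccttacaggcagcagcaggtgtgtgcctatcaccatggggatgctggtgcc
Cxcl10: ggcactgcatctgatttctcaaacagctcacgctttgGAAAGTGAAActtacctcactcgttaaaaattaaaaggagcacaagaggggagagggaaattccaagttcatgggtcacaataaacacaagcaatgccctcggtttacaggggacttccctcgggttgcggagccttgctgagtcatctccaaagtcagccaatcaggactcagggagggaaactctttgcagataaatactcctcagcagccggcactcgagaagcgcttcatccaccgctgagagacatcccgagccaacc
Ddx58: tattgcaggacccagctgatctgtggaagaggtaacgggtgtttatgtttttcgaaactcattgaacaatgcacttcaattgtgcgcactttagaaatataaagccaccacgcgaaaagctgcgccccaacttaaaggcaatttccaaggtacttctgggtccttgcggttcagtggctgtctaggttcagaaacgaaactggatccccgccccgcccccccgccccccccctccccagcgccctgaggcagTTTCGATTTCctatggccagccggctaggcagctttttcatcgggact
Bst2: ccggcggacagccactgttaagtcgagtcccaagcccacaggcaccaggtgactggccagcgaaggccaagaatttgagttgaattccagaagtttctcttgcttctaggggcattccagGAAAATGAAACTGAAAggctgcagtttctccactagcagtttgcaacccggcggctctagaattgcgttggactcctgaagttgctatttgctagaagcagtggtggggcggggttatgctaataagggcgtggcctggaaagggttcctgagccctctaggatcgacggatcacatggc

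The array C3H CBE 1 carries much of what the contrast shows. It read more than 1 log2 unit above the mean of its replicates in 115 genes (0.518% of all). The other 11 arrays did so against the mean of their own replicates in between 1 and 11 genes. The excess took in 15 of 25 measured genes of damage- and storage-associated microglia, 11 of 22 myeloid and phagocyte receptors, 5 of 12 complement genes, 4 of 11 interferon-induced GTPases, 11 of 37 interferon-stimulated effectors, 8 of 30 lysosomal and 6 of 22 reactive astrocyte genes. None of the measured markers of homeostatic microglia (13), excitatory neurons (13), oligodendrocytes (14), lymphocytes (13), or monocytes and neutrophils (12) was among them. Counted in either direction, gaps over 1 log2 unit numbered 122 genes for C3H CBE 1. They numbered 32 and 45 for C3H CBE 2 and 3, whose replicate means include C3H CBE 1, and 4 to 28 for the remaining arrays. The fit with array weights gave C3H CBE 1 a weight of 0.788 and C3H CBE 2 a lower one, 0.745. C3H CBE 1 was singled out because it stood apart in these same genes, so results without it are not independent of that choice. Why it differed was not tested.

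Each strain's own response was next set beside the other's. CBE changed 72 genes in C57 (0.325%), 70 up (0.316%) and 2 down (0.00902%), and 8 genes in C3H (0.0361%), all up. At an unadjusted p under the threshold there were 1281 genes in C57 (5.78%) and 1114 in C3H (5.02%). Without C3H CBE 1 there were 1365 in C57 (6.15%) and 840 in C3H (3.79%). If no gene changed, a share equal to the threshold itself would pass by chance. The C57 shares lay little above that level, and the C3H shares lay at or below it. The unadjusted counts therefore do not show that the strains were alike. Without C3H CBE 1 the adjusted counts were 136 in C57 (0.613%), 133 up (0.6%) and 3 down (0.0135%), and 7 in C3H (0.0316%), again all up. C3H CBE 1 is not in the C57 contrast, so the C57 changes were the same in both fits. Their count moved through the shared spread: C3ar1 changed by 0.98 ± 0.28 in C57 with all arrays and 0.98 ± 0.10 without C3H CBE 1. The same holds for the C57 counts of each list below. All but 1 of the C3H rises, 7, were also called in C57. These counts do not by themselves show a strain difference, since a gene can pass in 1 strain and just miss in the other. The 70 genes raised in C57 had a median change of 1.15 in C57 and 0.54 in C3H, or 0.33 in C3H without CBE 1; having been chosen on the C57 arrays, they were bound to favour C57. In C57, CBE arrays lay wholly above PBS arrays for 70 of the 70, and in C3H for 50, where over all 22180 genes this held for 1291 in C57 and 998 in C3H. Across all genes the Pearson correlation of the C57 and C3H changes was 0.38, and 0.19 without C3H CBE 1; genes are not independent replicates, and no test was made.

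The genes raised in C3H were mostly interferon targets. The 8 were Ifit1, Oasl2, Usp18, Rnf213, Ifi27, Lgals3bp, Isg15 and Rtp4, with median changes of 1.89 in C57 and 1.60 in C3H, and 6 of them were larger in C57. Without C3H CBE 1 the C3H median was 1.22 and 7 of the 8 were larger in C57. None of the 8 differed between the strains past the threshold in either fit. Usp18 (probe set 17462437), which strips Isg15 from proteins and restrains the interferon receptor, read 6.72, 7.12 and 7.58 on the C57 CBE arrays and 4.43, 4.30 and 4.64 on the C57 PBS arrays. It read 7.48, 5.94 and 5.94 on the C3H CBE arrays and 3.88, 3.72 and 4.0 on the C3H PBS arrays. The changes, 2.68 ± 0.30 in C57 and 2.59 ± 0.30 in C3H, differed by 0.10, with a 95% confidence interval of -0.78 to 0.97 that leaves room for a sizeable difference either way.

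Ifit1 (probe set 17358832), which binds foreign RNA, was the most raised gene in C57. It read 8.36, 8.60 and 9.10 on the C57 CBE arrays and 5.44, 5.31 and 5.97 on the C57 PBS arrays, and 8.28, 7.03 and 6.74 on the C3H CBE arrays and 4.75, 5.28 and 4.78 on the C3H PBS arrays. The change was 3.12 ± 0.30 in C57, or 8.67-fold (adjusted p = 5.49e-06), and 2.41 ± 0.30 in C3H, or 5.32-fold (adjusted p = 0.00085). Its strain difference of 0.70 ± 0.43 did not pass (adjusted p = 1), nor did the 1.17 ± 0.34 found without C3H CBE 1 (adjusted p = 0.633). Isg15 (probe set 17434023), a ubiquitin-like protein modifier, came nearer, with a strain difference of 0.73 ± 0.27 with all arrays and 1.05 ± 0.20 without C3H CBE 1 (adjusted p = 0.0798). Lgals3bp, a secreted glycoprotein, gave -0.04 ± 0.41 with all arrays and 0.42 ± 0.32 without C3H CBE 1, and its sign turned under several settings. Ifi27, an interferon-induced mitochondrial protein, was the member with a larger change in C3H in both fits, at -0.41 ± 0.29 and -0.12 ± 0.25 (adjusted p = 1 in both).

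**Figure D2:**
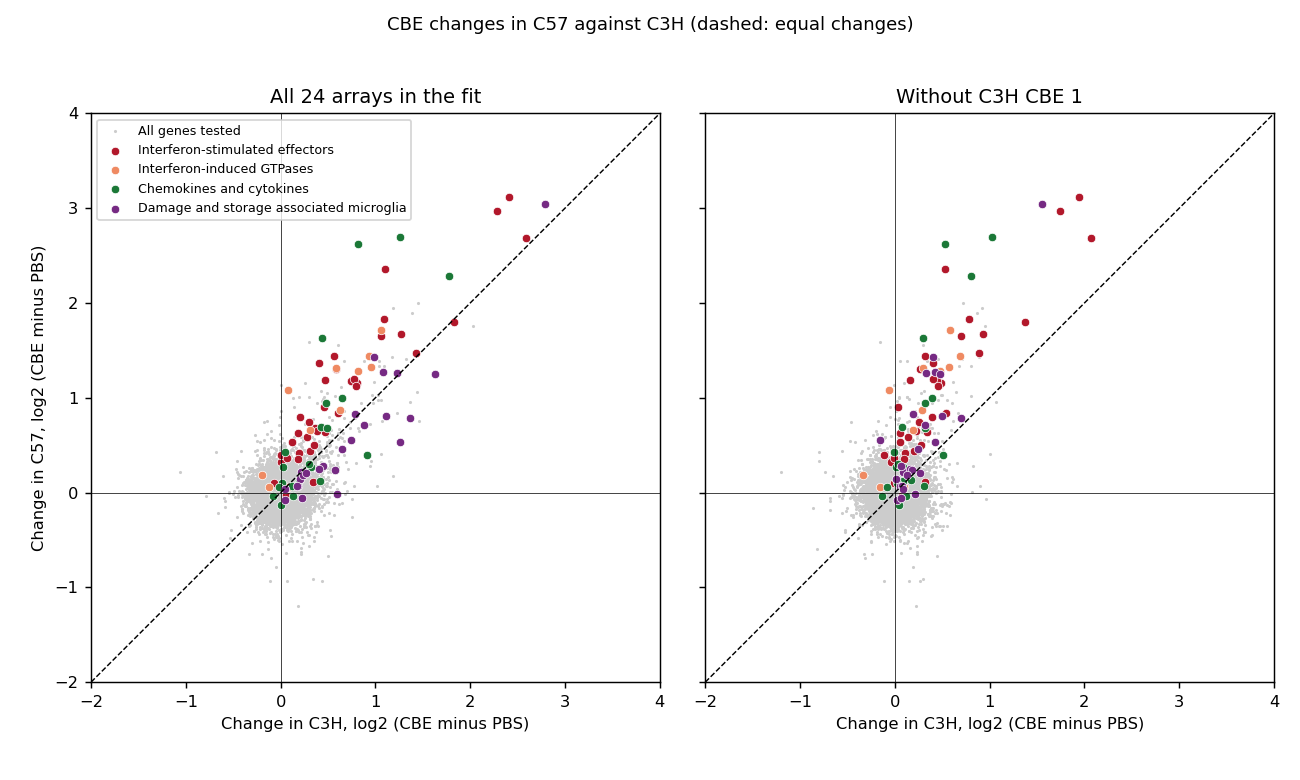
Change under CBE in C57 (y axis) against the change in C3H (x axis), log2, for all 22180 genes, with members of 4 lists in colour, using all arrays (left) and without C3H CBE 1 (right). Interferon-stimulated effectors lie mostly above the dashed line of equal changes in both panels. Microglial genes of damage and storage lie mostly below it on the left (6 of 25 above) and mostly above it on the right (19 of 25).

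Interferon-stimulated effectors as a list shifted towards C57. Of 37 measured members, 34 had a larger change in C57 with all arrays and 35 without C3H CBE 1, with a median strain difference of 0.35 in the first case and 0.51 in the second. Only Rsad2 passed the threshold with all arrays, and Rsad2, Ddx58 and Bst2 without C3H CBE 1. In C57, 24 of the 37 passed as raised (all genes 0.316%), or 30 without C3H CBE 1 (all genes 0.6%), with a median change of 0.84. In C3H 6 passed (all genes 0.0361%), or 4 without CBE 1 (all genes 0.0316%), with a median change of 0.46, or 0.32 without CBE 1. The mean of the list on an array, less the PBS mean of its strain, was 0.88, 1.09 and 1.23 on the C57 CBE arrays and 1.10, 0.47 and 0.46 on the C3H CBE arrays. The C57 arrays therefore overlapped C3H CBE 1 and lay above C3H CBE 2 and 3.

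Interferon-induced GTPases, which attack the vacuoles of intracellular parasites, gave the highest list median without C3H CBE 1. It was 0.38 over 11 members with all arrays and 0.75 without that array, and 10 members were larger in C57 in both fits. Within C57 5 passed as raised (all genes 0.316%), or 6 without C3H CBE 1 (all genes 0.6%), with a median change of 1.09. Within C3H 0 passed in either fit (all genes 0.0361% and 0.0316%), although the median change was 0.59, or 0.29 without CBE 1; Igtp, chosen after its values were seen, changed by 1.44 in C57 and 0.94 in C3H. No member passed for the strain difference. Irgm2 (probe set 17249990) read 5.16, 5.19 and 5.57 on the C57 CBE arrays and 4.33, 3.89 and 4.45 on the C57 PBS arrays, and 4.17, 3.60 and 3.90 on the C3H CBE arrays and 3.69, 3.78 and 3.94 on the C3H PBS arrays. CBE and PBS arrays overlapped in C3H and not in C57, and C3H CBE 1 did not stand far apart. The strain difference in Irgm2 was 1.00 ± 0.22 (adjusted p = 0.445), and 1.14 ± 0.22 without C3H CBE 1 (adjusted p = 0.0798). Gbp7, a guanylate-binding protein, rose by 1.28 in C57 (adjusted p = 0.0101) and changed by 0.81 in C3H (adjusted p = 0.563), a difference of 0.46 ± 0.33, or 0.80 ± 0.28 without C3H CBE 1 (adjusted p = 0.952).

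A pair of further interferon-inducible genes showed a similar layout without passing. Ifi209, a member of a family of DNA-binding sensors, read 5.03, 4.80 and 5.36 on the C57 CBE arrays and 3.83, 3.54 and 4.41 on the C57 PBS arrays, while all 6 C3H arrays lay between 3.95 and 4.01. Its strain difference was 1.14 ± 0.26 (adjusted p = 0.677), or 1.15 ± 0.29 without C3H CBE 1 (adjusted p = 0.391). Those flat C3H values lie below the median of all probe sets. Trim30d, of the TRIM ubiquitin ligase family, changed by 0.61 ± 0.13 in C57 (adjusted p = 0.0308) and -0.27 ± 0.13 in C3H, a difference of 0.88 ± 0.18 (adjusted p = 0.275), or 0.84 ± 0.19 without C3H CBE 1 (adjusted p = 0.286). It passed when C57 PBS 1 was left out (1.05, adjusted p = 0.0297).

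Receptors and signal transducers of the pathway differed less. Over 16 members the median strain difference was 0.03 with all arrays and 0.11 without C3H CBE 1, and no member passed. Within C57 3 passed as raised in both fits (all genes 0.316% and, without C3H CBE 1, 0.6%). Within C3H 0 passed in either (all genes 0.0361% and 0.0316%), with median changes of 0.13 in C57 and 0.06 in C3H. Stat2, a subunit of the complex that binds the ISRE, changed by 0.97 ± 0.13 in C57 (adjusted p = 0.000228) and 0.44 ± 0.13 in C3H (adjusted p = 0.563), a difference of 0.53 ± 0.18, or 0.62 ± 0.18 without C3H CBE 1 (adjusted p = 0.704). Irf7, the factor that amplifies interferon production, changed by 1.89 ± 0.28 in C57 (adjusted p = 0.00134) and 1.39 ± 0.28 in C3H (adjusted p = 0.0902), a difference of 0.50 ± 0.40, or 1.02 ± 0.26 without C3H CBE 1 (adjusted p = 0.406).

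**Figure D3:**
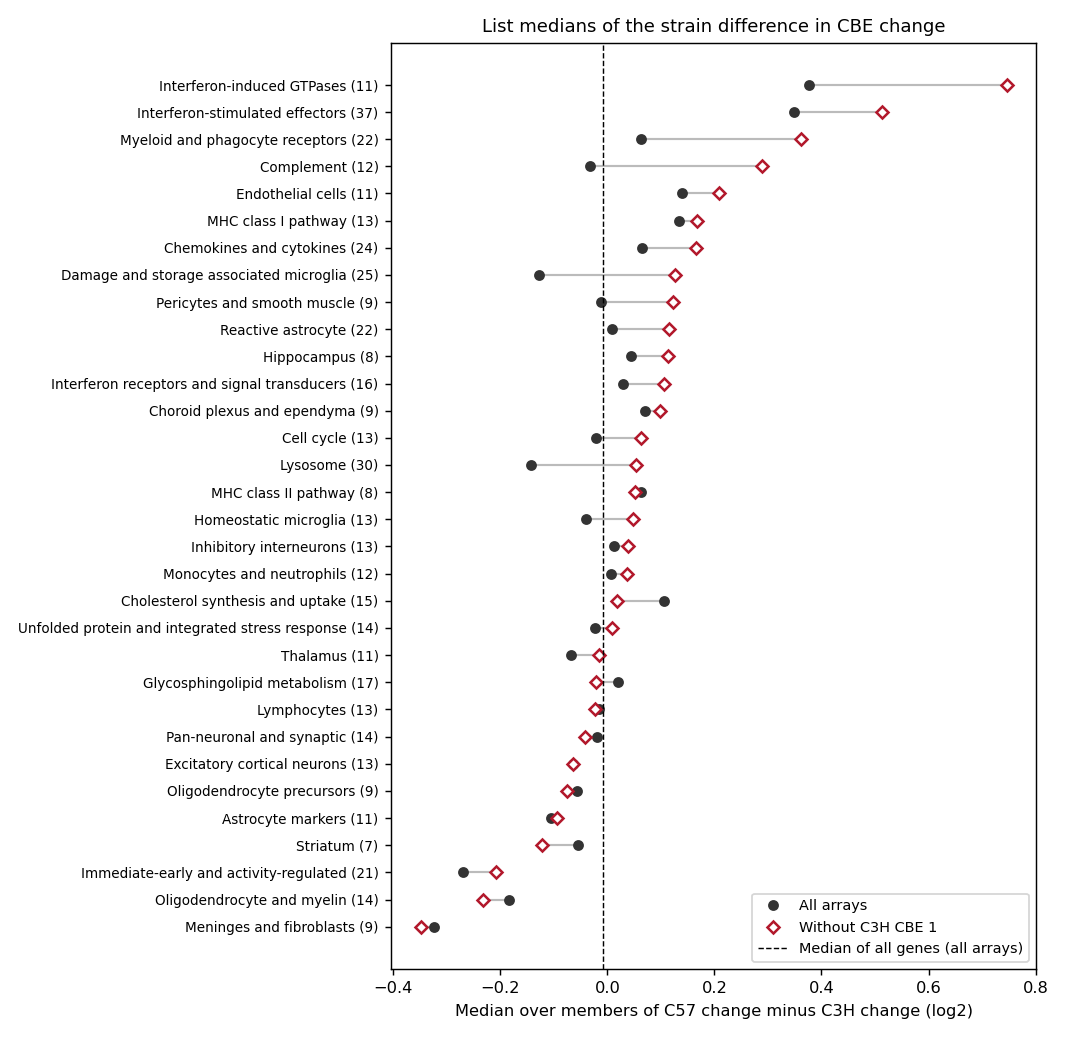
Median over measured members (number in brackets) of the C57 change minus the C3H change, log2 (x axis), for each list of at least 7 measured genes (y axis), with all arrays (filled circles) and without C3H CBE 1 (open diamonds); the dashed line is the median of all genes. Interferon-induced GTPases and interferon-stimulated effectors lie at the positive end in both fits, and meninges and fibroblasts at the negative end.

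Chemokines and cytokines had a median strain difference of 0.06 over 24 members, and 0.17 without C3H CBE 1, when Cxcl10 and Ccl3 passed. Within C57 5 members passed as raised in both fits (all genes 0.316% and, without C3H CBE 1, 0.6%), and within C3H 0 passed in either (all genes 0.0361% and 0.0316%). The median change did not follow these counts, at 0.27 in C57 and 0.31 in C3H, or 0.12 in C3H without CBE 1. Ccl5, which recruits T cells and monocytes, read 7.60, 7.60 and 7.83 on the C57 CBE arrays, 4.38, 4.52 and 6.04 on the C57 PBS arrays, 6.02, 5.49 and 5.15 on the C3H CBE arrays and 4.27, 4.33 and 4.28 on the C3H PBS arrays. C57 PBS 3 was thus above every C3H CBE array, and in both strains every CBE array lay above every PBS array. Ccl5 changed by 2.70 ± 0.29 in C57 and 1.26 ± 0.29 in C3H (adjusted p = 0.212). The difference was 1.44 ± 0.41 with all arrays (adjusted p = 1), 1.67 ± 0.41 without C3H CBE 1 (adjusted p = 0.391) and 1.97 when C57 PBS 3 was left out (adjusted p = 0.00651). Ccl12, a monocyte chemokine, changed by 1.63 ± 0.19 in C57 (adjusted p = 5.24e-05) and 0.44 ± 0.19 in C3H (adjusted p = 0.954), a difference of 1.19 ± 0.27 (adjusted p = 0.517), or 1.33 ± 0.27 without C3H CBE 1 (adjusted p = 0.141).

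Antigen presentation through MHC class I differed little as a list. The median over 13 members was 0.13 with all arrays and 0.17 without C3H CBE 1, and none passed. Within C57 4 members passed as raised (all genes 0.316%), or 6 without C3H CBE 1 (all genes 0.6%). Within C3H 0 passed in either fit (all genes 0.0361% and 0.0316%). The median changes were 0.63 in C57 and 0.39 in C3H, or 0.21 in C3H without CBE 1. B2m, the light chain of class I molecules, read 11.98, 11.98 and 11.73 on the C57 CBE arrays, 11.12, 11.12 and 11.20 on the C57 PBS arrays, 11.40, 10.09 and 9.93 on the C3H CBE arrays and 9.48, 9.26 and 9.46 on the C3H PBS arrays. Every C57 PBS array lay above C3H CBE 2 and 3. The change was 0.75 ± 0.24 in C57 and 1.07 ± 0.24 in C3H, a strain difference of -0.32 ± 0.34 that turned to 0.15 ± 0.20 without C3H CBE 1. Psmb8, an immunoproteasome subunit, differed by 0.20 ± 0.20, or 0.44 ± 0.14 without C3H CBE 1 (adjusted p = 0.832), and the class I gene H2-Q4 by 0.56 ± 0.27 or 0.70 ± 0.27 (adjusted p = 1 for both). Class I genes resemble one another and vary between strains, which leaves the identity of the H2-Q4 signal uncertain. Over 8 class II members the median was 0.06, or 0.05 without C3H CBE 1, and Ifi30 was the member that passed without C3H CBE 1. Complement gave -0.03 over 12 members with all arrays and 0.29 without C3H CBE 1, and none passed. Within C57 0 complement members passed as raised with all arrays (all genes 0.316%) and 6 without C3H CBE 1 (all genes 0.6%). Within C3H 0 of them passed in either fit (all genes 0.0361% and 0.0316%). C3ar1, the receptor for a complement fragment, gave -0.08 ± 0.40 with all arrays and 0.52 ± 0.15 without that array (adjusted p = 0.575).

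Genes of microglia around damage and storage turned with C3H CBE 1. The median over 25 members was -0.13 with all arrays, with 6 above 0, and 0.13 without that array, with 19 above 0, and no member passed in either fit. Within C57 2 passed as raised with all arrays (all genes 0.316%) and 9 without C3H CBE 1 (all genes 0.6%). Within C3H 0 passed with all arrays (all genes 0.0361%) and 1 without CBE 1 (all genes 0.0316%). List means less the strain's PBS mean were 0.40, 0.61 and 0.72 on the C57 CBE arrays and 1.63, 0.28 and 0.27 on the C3H CBE arrays. The first C3H array thus lay above every C57 array, and the other C3H arrays below every C57 array. Gpnmb (probe set 17458439), a membrane glycoprotein of storage-laden macrophages, read 4.95, 5.58 and 5.76 on the C57 CBE arrays, 4.10, 4.13 and 4.29 on the C57 PBS arrays, 7.67, 4.31 and 4.13 on the C3H CBE arrays and 3.83, 3.59 and 3.80 on the C3H PBS arrays. Its strain difference was -0.38 ± 0.73 with all arrays and 0.77 ± 0.21 without C3H CBE 1 (adjusted p = 0.517).

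Cd68, a lysosomal membrane protein of phagocytes, read 7.74, 8.02 and 8.01 on the C57 CBE arrays, 7.06, 7.02 and 7.33 on the C57 PBS arrays, 8.85, 6.82 and 6.89 on the C3H CBE arrays and 6.24, 6.11 and 6.11 on the C3H PBS arrays. All CBE arrays were above the PBS arrays of their own strain. The Cd68 difference was -0.58 ± 0.43 with all arrays and 0.09 ± 0.15 without C3H CBE 1, when its C3H change of 0.70 ± 0.11 passed (adjusted p = 0.0195). Cd52, a surface glycoprotein of immune cells, changed by 1.43 ± 0.30 in C57 (adjusted p = 0.0322) and 0.99 ± 0.30 in C3H, and Clec7a, a receptor for fungal glucans, by 1.26 ± 0.42 in C57 and 1.23 ± 0.42 in C3H. Their strain differences without C3H CBE 1 were 1.03 ± 0.23 for Cd52 (adjusted p = 0.272) and 0.93 ± 0.23 for Clec7a (adjusted p = 0.398). Lilrb4a, an inhibitory receptor with a near-identical neighbour that leaves its signal uncertain, differed by 0.25 ± 0.84 with all arrays and 1.49 ± 0.40 without that array (adjusted p = 0.48).

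Myeloid and phagocyte receptors gave a median of 0.06 over 22 members with all arrays and 0.36 without C3H CBE 1; none passed. Within C57 3 passed as raised (all genes 0.316%), or 9 without C3H CBE 1 (all genes 0.6%). Within C3H 0 passed in either fit (all genes 0.0361% and 0.0316%). The median changes were 0.62 in C57 and 0.53 in C3H, or 0.22 in C3H without CBE 1. Cybb, which makes superoxide in phagocytes, differed by 0.55 ± 0.51, or 1.28 ± 0.26 without C3H CBE 1 (adjusted p = 0.141), and Slc11a1, a metal transporter of phagosomes, by 0.28 ± 0.22 or 0.56 ± 0.15. Homeostatic microglial genes gave -0.04 over 13 members and 0.05 without the array, and 0 of them passed within either strain in either fit. Among them Csf1r, the growth factor receptor of microglia, differed by 0.01 ± 0.18, or 0.18 ± 0.16 without C3H CBE 1, and P2ry12, a nucleotide receptor, by -0.21 ± 0.16 or -0.10 ± 0.16. The tissue was bulk cortex, in which a change in the number of cells of a type and a change in RNA per cell cannot be told apart.

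**Figure D4:**
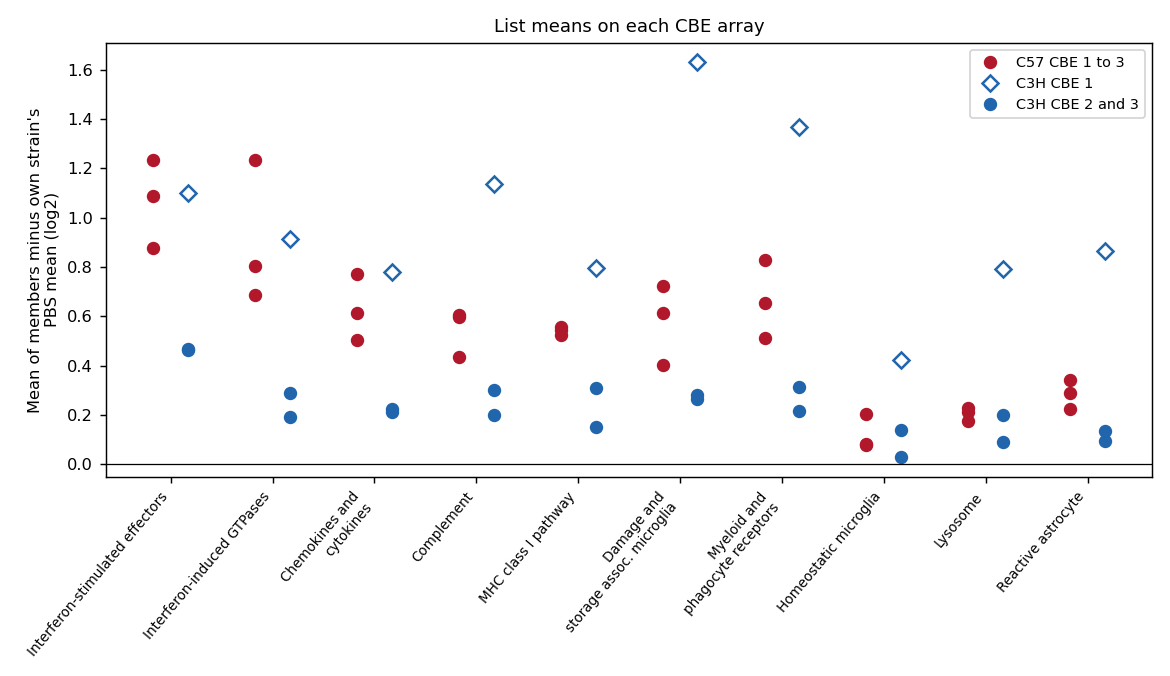
Mean log2 signal of a list on each CBE array minus the mean of its own strain's 3 PBS arrays (y axis), for 10 lists (x axis); filled red circles are C57 CBE arrays, filled blue circles C3H CBE 2 and 3, and open diamonds C3H CBE 1. C3H CBE 1 lies above all C57 CBE arrays for microglial genes of damage and storage (1.63 against at most 0.72 in C57), while for interferon-stimulated effectors it lies within their range.

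Lysosomal genes, whose products break down the stored lipids among other cargo, gave a median of -0.14 over 30 members with all arrays, 3 above 0, and 0.05 without C3H CBE 1, 18 above 0. None passed for the strain difference. Within C57 0 members passed as raised with all arrays (all genes 0.316%) and 6 without C3H CBE 1 (all genes 0.6%). Among the 6 were Cd68 (0.78, adjusted p = 7.92e-05) and the protease gene Ctss (0.94, adjusted p = 0.00032). Within C3H 0 passed with all arrays (all genes 0.0361%) and 1, Cd68, without CBE 1 (all genes 0.0316%). Enzymes of glycosphingolipid metabolism gave 0.02 over 17 members, or -0.02 without the array. Gba2, the non-lysosomal glucosylceramidase, changed by -0.14 ± 0.07 in C57 and -0.13 ± 0.07 in C3H, and its strain difference had a 95% confidence interval of -0.22 to 0.22. Ugcg, which makes glucosylceramide, changed by -0.10 ± 0.10 in C57 and -0.12 ± 0.10 in C3H, with an interval of -0.28 to 0.32 for the strain difference.

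Reactive astrocyte genes gave a median of 0.01 over 22 members, or 0.12 without C3H CBE 1, and none passed. Gfap (probe set 17270354), the intermediate filament of reactive astrocytes, read 7.95, 8.13 and 8.30 on the C57 CBE arrays, 6.56, 6.85 and 6.67 on the C57 PBS arrays, 8.05, 7.32 and 7.05 on the C3H CBE arrays and 6.15, 6.25 and 6.49 on the C3H PBS arrays. It was higher on all CBE arrays of both strains, rising by 1.43 ± 0.27 in C57 (adjusted p = 0.0141) and changing by 1.18 ± 0.27 in C3H (adjusted p = 0.212). The strain difference was 0.25 ± 0.38, or 0.54 ± 0.36 without C3H CBE 1. Serpina3n, a secreted protease inhibitor of reactive astrocytes, gave -0.26 ± 0.70 with all arrays and 0.81 ± 0.25 without that array (adjusted p = 0.748), and Osmr, a cytokine receptor subunit, 0.20 ± 0.38 and 0.69 ± 0.26.

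**Figure D5:**
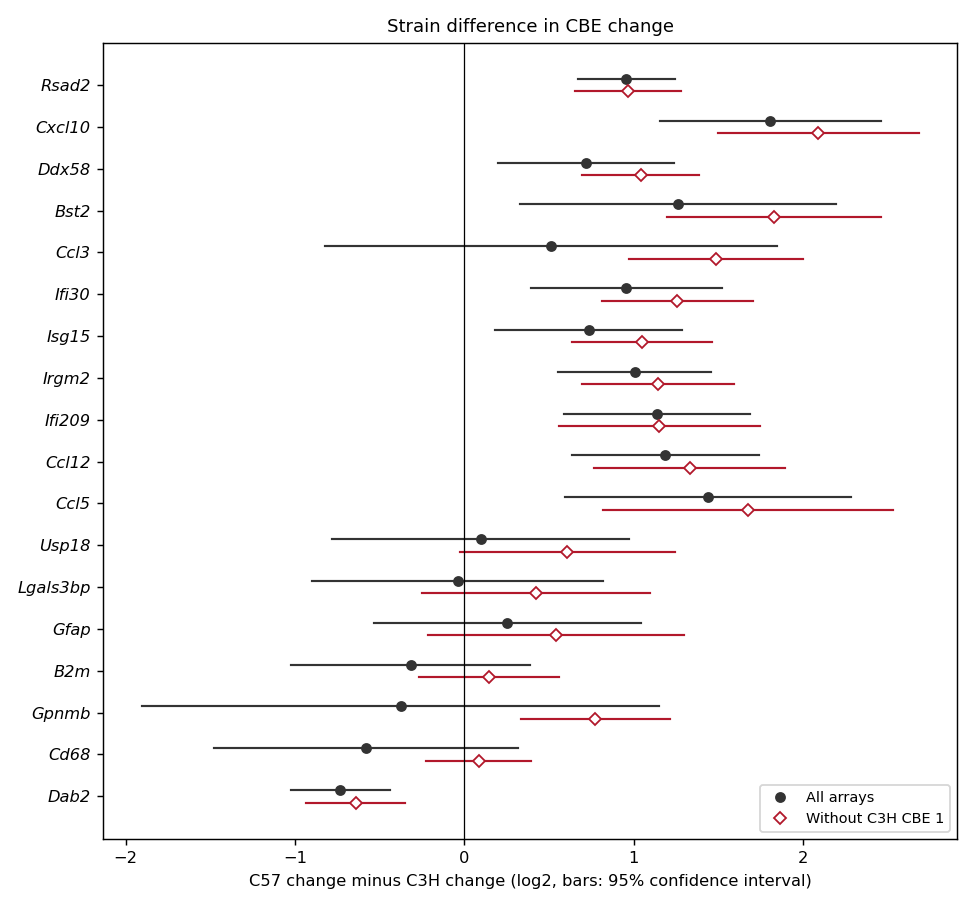
Strain difference in the CBE change, C57 minus C3H, log2 (x axis) for 18 genes (y axis); points are estimates and bars their 95% confidence intervals, unadjusted, with all arrays (filled circles) and without C3H CBE 1 (open diamonds). The Rsad2 interval hardly moves between the fits, while those of Ccl3, Gpnmb and Cd68 narrow and shift when the array is left out.

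On the negative side, where the change was lower in C57, no gene passed. Dab2 (probe set 17309935), a clathrin adaptor for endocytosis, came nearest with all arrays. It read 5.64, 5.56 and 5.74 on the C57 CBE arrays, 5.87, 5.88 and 5.85 on the C57 PBS arrays, 5.99, 5.78 and 5.66 on the C3H CBE arrays and 5.38, 5.14 and 5.37 on the C3H PBS arrays. CBE arrays were below PBS arrays in C57 and above them in C3H, without overlap in either. In PBS mice Dab2 was higher in C57 by 0.57 ± 0.10 (limma adjusted p = 0.000863), and those PBS arrays enter the strain difference. Its changes were -0.22 ± 0.10 in C57 and 0.51 ± 0.10 in C3H (adjusted p = 0.0642), a difference of -0.73 ± 0.14 (adjusted p = 0.189), or -0.64 ± 0.14 without C3H CBE 1 (adjusted p = 0.203). The zinc finger gene Zfp27 gave -0.63 ± 0.13 (adjusted p = 0.275), the zinc transporter gene Slc39a1 -0.59 ± 0.14 (adjusted p = 0.677) and the nuclear pore gene Nup133 -0.56 ± 0.13 (adjusted p = 0.517). Without C3H CBE 1 they gave -0.58 for Zfp27 (adjusted p = 0.312), -0.52 for Slc39a1 (adjusted p = 0.517) and -0.54 for Nup133 (adjusted p = 0.407). Nup133 was higher in C57 PBS than in C3H PBS mice by 0.75 ± 0.09 (limma adjusted p = 1.12e-05). The PBS gap of Slc39a1, 0.28 ± 0.10, did not pass (limma adjusted p = 0.0903). Ifi44l, an interferon-stimulated gene that read between 3.49 and 3.74 on all 6 C57 arrays, read 4.80, 4.22 and 4.09 on the C3H CBE arrays and 3.62, 3.58 and 3.80 on the C3H PBS arrays, a difference of -0.68 ± 0.19 (adjusted p = 1), or -0.47 ± 0.15 without C3H CBE 1 (adjusted p = 0.755).

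With all arrays the falls called in C57 numbered 2 and were not called in C3H. Nup133 changed by -0.44 ± 0.09 in C57 (adjusted p = 0.0278) and 0.12 ± 0.09 in C3H, and Cbln2, a secreted organiser of synapses, by -0.44 ± 0.09 in C57 (adjusted p = 0.0332) and -0.08 ± 0.09 in C3H. Neither strain difference passed. Without C3H CBE 1 the third fall called in C57 was that of Zfp27 (-0.41, adjusted p = 0.0318). Skint8, of a family of immunoglobulin-like genes, was the nearest positive one after Cxcl10. Its strain difference was 0.72 ± 0.13 (adjusted p = 0.154), or 0.67 ± 0.14 without C3H CBE 1 (adjusted p = 0.141). However, all 12 arrays read between 3.18 and 3.87, below the median of all probe sets. The PBS difference of Skint8, C57 minus C3H, was -0.51 ± 0.09 (limma adjusted p = 0.00129).

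Markers of the vessel wall, meninges and other cells were examined since the tissue slice can hold them. Endothelial genes gave a median of 0.14 over 11 members, or 0.21 without C3H CBE 1; Flt1, a growth factor receptor, differed by 0.50 ± 0.22, or 0.64 ± 0.22 without the array, and the receptor Tie1 by 0.48 ± 0.18 or 0.47 ± 0.20. Pericyte and smooth muscle genes gave a median of -0.01 over 9 members, with 4 above 0. Without C3H CBE 1 their median was 0.12, with 5 above 0. From that list, Acta2, smooth muscle actin, read 7.30, 6.92 and 7.21 on the C57 CBE arrays, 6.52, 6.31 and 6.02 on the C57 PBS arrays, 5.87, 5.67 and 6.08 on the C3H CBE arrays and 6.08, 5.81 and 5.71 on the C3H PBS arrays. It rose in C57 by 0.86 ± 0.18 (adjusted p = 0.0322) and changed by 0.01 ± 0.18 in C3H, a strain difference of 0.85 ± 0.25 (adjusted p = 1), or 0.85 ± 0.28 without C3H CBE 1 (adjusted p = 0.821). Myh11, smooth muscle myosin, differed by 0.49 ± 0.17 or 0.38 ± 0.17. Meningeal and fibroblast genes gave a median of -0.32, or -0.35 without C3H CBE 1, with 0 of 9 members above 0 in either fit. Ptgds, prostaglandin D synthase, read 10.65, 9.71 and 8.90 on the C57 CBE arrays, where the C57 PBS arrays lay between 10.47 and 10.78, and Dcn, decorin, differed by -0.86 ± 0.35, or -0.88 ± 0.37 without C3H CBE 1. None of these strain differences passed, and the part of vessels or meninges in the results above was not tested.

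Neuronal, oligodendrocyte and blood cell markers showed no called strain difference. With all arrays and without C3H CBE 1, the medians were -0.07 and -0.06 for excitatory neurons (13), 0.01 and 0.04 for inhibitory interneurons (13), and -0.02 and -0.04 for pan-neuronal genes (14, with a sign that turned under quantile normalization). Myelin genes gave -0.18 and -0.23 over 14 members, and immediate-early genes, which neurons switch on when active, -0.27 and -0.21 over 21. Of the immediate-early genes, Btg2 differed by -0.48 ± 0.33, or -0.12 ± 0.26 without C3H CBE 1, and Ier2 by -0.41 ± 0.26 or -0.20 ± 0.25. In PBS mice the myelin and immediate-early lists were higher in C57, with medians of 0.62 for myelin and 0.86 for immediate-early genes. Myelin list means were 8.689, 8.483 and 7.99 on the C57 PBS arrays and 7.891, 8.008 and 7.224 on the C3H PBS arrays, with overlap. Immediate-early list means were 8.015, 7.985 and 7.422 on the C57 PBS arrays and 6.93, 7.235 and 7.07 on the C3H PBS arrays, without overlap. Of the myelin genes 4 were called higher in C57, and of the immediate-early genes 8 (all genes 3.49%). Those PBS arrays enter the strain difference in response. Astrocyte markers gave -0.11 over 11 members, or -0.09 without C3H CBE 1, with Fgfr3 at -0.43 ± 0.15 or -0.47 ± 0.16 and Sox9, a transcription factor, at -0.46 ± 0.20 or -0.40 ± 0.21. Lymphocyte markers (-0.01 or -0.02 by fit) and those of monocytes and neutrophils (0.01 and 0.04) hardly moved, and lymphocyte list means lay between 3.5 and 3.63 on all 12 arrays, below the median of all probe sets.

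Many more genes were called between the strains' PBS levels than for the difference in response. The median standard error was 0.14 for a strain difference in response and 0.10 for a contrast of 3 arrays with 3. The counts therefore do not compare the sizes of the differences. Between C57 PBS and C3H PBS mice 1485 genes differed (6.7%), 774 higher (3.49%) and 711 lower (3.21%) in C57. With the spread estimated without C3H CBE 1 there were 1544 (6.96%), 821 higher (3.7%) and 723 lower (3.26%). The genes with the widest gaps included Fam205a2, higher in C57 by 3.33 ± 0.13, the astrocytic lipid enzyme gene Etnppl, higher by 3.18 ± 0.25, and Baiap2l1, an actin regulator, at -2.95 ± 0.12. Etnppl read 5.75, 6.4 and 6.14 on the C57 CBE arrays and 7.51, 7.32 and 6.26 on the C57 PBS arrays, while the C3H arrays lay between 3.72 and 3.87. Interferon-stimulated effectors as a list had a PBS median of 0.10, with 4 members called higher and 1 lower in C57; Lgals3bp was higher in C57 by 1.62 ± 0.29 (adjusted p = 0.0012) and Oasl2 by 1.18 ± 0.33 (adjusted p = 0.0342). Probe sequences were not read here, so a difference in transcript level and a difference in how a probe set reads each strain's allele cannot be told apart.

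A list chosen by the change in FVB and SV129 mice was also set against the contrast. C57 and C3H arrays entered its p-values through the shared spread, so the list is not fully independent of them. The 26 genes raised in the mean of FVB and SV129 mice, a list made after the data were seen, had a median change of 1.4 in C57 and 0.93 in C3H, or 0.57 in C3H without CBE 1. Of these 26, 18 changed more in C57, and 20 without C3H CBE 1, with a median strain difference of 0.38 in the first case and 0.61 in the second. Over all genes 10544 of 22180 were above 0 with all arrays and 10705 without C3H CBE 1. Among those that did not change more in C57, Cxcl11, a chemokine related to Cxcl10 and chosen after its values were seen, changed by 0.39 in C57 and 0.92 in C3H, or 0.51 in C3H without CBE 1. Rnf213, a large ubiquitin ligase, was among the 18 and changed by 1.95 in C57 and 1.18 in C3H. The 13 genes lowered in FVB and SV129 had median changes of -0.01 in C57 and -0.06 in C3H.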

How the data were processed

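Cortex of 24 male mice of 4 strains was measured on Affymetrix arrays, 1 per mouse, from 100 ng of total RNA and a 1 mm coronal slice per the labels' protocols. The deposited values are log2 signals per probe set, for 41034 probe sets; per the submitters' processing notes the authors used Partek and RMA, with versions and order not given in the sources used here. The log base is not stated and was inferred from the range, 2.43 to 14.09. Scanner files were not used here. The number of arrays limits the precision.

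Platform symbols, which can be old, gave 23521 probe sets 1 symbol, 1814 several and 15699 none; the highest-mean probe set stood for each of 22180 genes, 1082 of which had several. No dim filter was applied. The 8 group means were fitted over the 24 arrays with limma 3.58.1 in R 4.3.3 (16 residual degrees of freedom, prior 5.10; 15 and 5.31 without C3H CBE 1), with two-sided moderated tests. Of 523 entries in 33 gene lists, 477 were measured; lists were described by counts and medians, with no test. The contrast, members and lists were chosen with earlier results of these data known. The genes of smallest p in each direction, up to 4 called members or the 2 of smallest p per list, the widest changes per strain and a few fixed genes could be named; predicted genes, clones, small RNAs and receptor families were not. The procedure was tested on simulated data. Alternatives were the 12 C57 and C3H arrays alone, trended robust variances, an ordinary linear model, quantile normalization, median centring, a dim filter, the mean of probe sets, a replicate block, each array left out and, added after the data were seen, array weights. Some genes are not reported here.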

Additional observations from a re-analysis of the deposited data

Results flagged for a closer look

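A difference between the strains in the CBE change passed its own test, the interaction contrast of the limma fit, for Rsad2 with all arrays (0.96, higher on 3 of 3 CBE arrays than on any PBS array in both strains). Without C3H CBE 1 it passed for Rsad2 (0.96), Cxcl10 (2.09), Bst2 (1.83), Ccl3 (1.48), Ifi30 (1.26) and Ddx58 (1.04). Each of these has a larger change in C57. Groups of 3 arrays are too small for the check of single outlying arrays used for larger groups.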

How the results depend on the processing

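The strain difference was called for 1 gene as reported. It was called for 0 with only the C57 and C3H arrays, with trended robust variances (Rsad2 adjusted p = 0.0505), in an ordinary linear model (0.0899), after quantile normalization (0.0981), and with only the C57 and C3H arrays less C3H CBE 1 (0.173). Genes changed in C57 numbered 72 as reported, 33 with only the C57 and C3H arrays, 36 in the ordinary model, 117 with those arrays less C3H CBE 1 and 112 with array weights. In C3H they numbered 8 as reported, 0 with only the C57 and C3H arrays, 13 with trended robust variances, 2 in the ordinary model, 13 after quantile normalization and 2 with only those arrays less C3H CBE 1. The cause of these moves was not tested. C3H CBE 1 is not part of the C57 contrast, so leaving it out changes the spread and no C57 change. The Cd68 change in C57, for example, was 0.78 ± 0.31 with all arrays and 0.78 ± 0.10 without C3H CBE 1. Leaving out 1 array at a time gave 0 to 6 called strain differences, 30 to 136 genes in C57, 3 to 52 in C3H (52 without C3H CBE 3, 21 without C3H CBE 2, 4 without C3H PBS 1, 3 without C3H PBS 2) and 924 to 1544 between PBS groups; no other alternative moved the PBS count by over 1.5 times.

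With strain and replicate number as a replicate block, 2 strain differences were called: Rsad2 (0.00958) and the small RNA gene Snora44 (-0.997, adjusted p = 0.0048), named because it was the other call. The counts were then 62 in C57 and 8 in C3H, and the PBS comparison could not be estimated. Same-numbered CBE and PBS arrays correlated at 0.07, 0.08 and 0.20 in C57 and -0.01, 0.10 and -0.03 in C3H, so the numbers were not taken to pair the mice; 3 of the 6 CBE arrays correlated best with their own number.

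For genes that missed the threshold, the sign of the difference turned in some settings. Lgals3bp gave 0.03 after quantile normalization, 0.10 with the mean of its probe sets and 0.041 with array weights. With only the C57 and C3H arrays less C3H CBE 1, Lgals3bp gave 0.42, B2m 0.15, Gpnmb 0.77, Cd68 0.086, C3ar1 0.52 and Serpina3n 0.81. Clec7a gave -0.036 after quantile normalization, Gba2 0.007 and, when centred, 0.002, and Ugcg -0.004 with array weights. Over the single omissions the range was -0.16 to 0.61 for Usp18, -0.42 to 0.42 for Lgals3bp, -0.59 to 0.15 for B2m, -0.45 to 1.49 for Lilrb4a, -0.99 to 0.77 for Gpnmb, -0.93 to 0.086 for Cd68, -0.47 to 0.93 for Clec7a, -0.39 to 0.52 for C3ar1, -0.82 to 0.81 for Serpina3n, -0.12 to 0.69 for Osmr, -0.033 to 0.032 for Gba2, -0.077 to 0.074 for Ugcg and -0.091 to 0.18 for Csf1r. Scaling moved the median of all genes by at most 0.03. Changes in genes that read below the median of all probe sets are less certain in size.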
